A study of Homo sapiens with 8 samples.

Results

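The genes described here encode the subunits of the proteasome, its activators and its assembly chaperones. They were taken by name, as every gene symbol made of PSMA, PSMB, PSMC, PSMD, PSME, PSMF or PSMG followed by digits only, and 46 of the 12939 genes in the deposited values met this rule. By their place in the complex they were 7 subunits of the alpha ring, 4 structural, 3 constitutive catalytic and 3 inducible catalytic subunits of the beta ring, 6 ATPases and 3 other subunits of the base, 8 subunits of the lid, 5 activators and inhibitors and 7 assembly chaperones. PSMA8 and PSMB11 were not analysed here.

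RNA-Seq was done on cancer stem cells (CSCs) of MDA-MB-231, a human breast cancer cell line of mesenchymal type. All cells carried GFP under the Oct4a regulatory region (pOct4a-GFP), and the brightest cells for GFP were sorted as CSCs together with RFP from the shRNA vector. The 3 groups differed in the stably expressed vector, which carried scramble shRNA (3 libraries), CDH2 shRNA against N-cadherin (3 libraries) or Cx43 shRNA against connexin 43, encoded by GJA1 (2 libraries). Transfectants were selected with puromycin and kept in G418, and sorted cells recovered overnight before RNA was isolated and depleted of ribosomal RNA. The CDH2 knockdown line was 1 selected clone, so clone and knockdown cannot be told apart. CDH2 and GJA1 transcripts were not analysed here. Values are log2(CPM + 1), where CPM is the read count scaled to library size, from which the authors had removed the effect of the sequencing replicates, and the depth of the libraries is unknown. The 5 of 5 markers fixed for MDA-MB-231 (VIM, CD44, AXL, CAV1 and MSN) had values of 6.35 to 9.81. Of the luminal breast markers 1 of 6 was listed, EPCAM at 2.21 to 2.75, of the leukocyte markers 1 of 5, CD68 at 3.76 to 4.49, and of the endothelial and fibroblast markers 2 of 6, PECAM1 and COL1A1 at 1.67 to 4.33. EPCAM was lower in CDH2 knockdown (log2 fold change -0.37, limma adjusted p = 0.035), and its part in the results was not tested. In bulk RNA, fewer cells of a kind and less RNA per cell cannot be told apart.

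The proteasome degrades proteins tagged with ubiquitin. Its core particle is a barrel of outer alpha rings and inner beta rings. Among the beta subunits, PSMB6, PSMB7 and PSMB5 carry the caspase-like, trypsin-like and chymotrypsin-like sites. Interferon induces PSMB9, PSMB10 and PSMB8, which take these places in newly built cores to form the immunoproteasome, and the peptides it makes are presented by MHC class I. The regulatory particle, made of base and lid, recognizes, unfolds and feeds in the substrate, whereas activators such as PA28, a ring of PSME1 and PSME2, open the core without ubiquitin.

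RefSeq promoters (GRCh38.p14, 250 bases before to 50 after the start site) were at hand for 40 of the 46 genes. The core of the interferon-stimulated response element, searched on either strand as GAAA repeated after any 2 bases because interferon induces several of these genes, was present in 6 of these 40 promoters (15%) and in 258 of 9276 promoters of all genes (2.78%). The 6 genes were PSMA4, PSMB4, PSMB10, PSME1, PSME2 and PSMG4. The promoters of the inducible subunits PSMB8 and PSMB9 were searched as well and held no match. The motif was chosen with the results of the 46 genes known, so the shares are a description. Of the 6 promoters with the motif, 4 held the repeat with the same letters, GAAAGCGAAA, and are printed to show it. These letters, or their complement on the other strand, are in capitals. The stretches lie at chr16:67936851-67936930 on the minus strand for PSMB10, chr14:24146611-24146690 on the minus strand for PSME2, chr14:24136189-24136218 on the plus strand for PSME1 and chr6:3258867-3258946 on the plus strand for PSMG4.
PSMB10: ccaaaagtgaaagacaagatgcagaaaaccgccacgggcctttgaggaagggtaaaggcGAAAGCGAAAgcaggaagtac
PSME2: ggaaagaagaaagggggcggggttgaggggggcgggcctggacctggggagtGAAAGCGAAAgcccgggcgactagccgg
PSME1: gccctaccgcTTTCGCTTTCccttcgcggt
PSMG4: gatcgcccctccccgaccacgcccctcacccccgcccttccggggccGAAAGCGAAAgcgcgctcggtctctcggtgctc

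The letters began 21 bases before the start site in PSMB10, 28 before it in PSME2 and 33 before it in PSMG4. The PSME1 stretch runs past the start site. TTCNNNGAA, the core of the gamma-activated sequence, was in 4 of the 40 promoters (10%) against 6.3% of all, and TGACNNNGC, the core of the antioxidant response element that NFE2L1 binds, was in 13 of the 40 (32.5%) against 15.3%. Both were searched on either strand, and none of these letters was shown to be bound.

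Of the 46 genes, 7 changed in CDH2 knockdown versus scramble (15.2%), where a change is an adjusted p under 0.05 in limma over all genes with the replicate number as a block. Over all 12939 genes this share was 14.3%, so the number of changed genes was near the background and is not a result about the proteasome. All 3 inducible catalytic subunits and both PA28 subunits fell, whereas the nuclear activator PSME3 and the chaperone PSMD5 rose. The 5 lower genes were 10.9% of the 46 against 6.98% of all genes, and the 2 higher genes 4.35% against 7.29%. With a fold change of at least 1.5 also required, PSMB9 and PSMB10 remained (4.35%, against 4.68% of all genes). None of the alpha ring, structural beta, constitutive catalytic, base or lid genes passed the test, and the 1 called chaperone was PSMD5.

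These calls rested on few libraries. Without CDH2 replicate 1, CDH2 replicate 2, either Cx43 library or scramble replicate 1, the number of changed members was 0, and at most 10 of all genes passed (0.0773%). Without scramble replicate 2 it was 3 (PSMB9, PSMB10 and PSME1), or 6.52% against 12.1% of all genes, and without CDH2 replicate 3 or scramble replicate 3 it was 27 (58.7%, against 41% of all genes). Without the replicate block it was 22 (47.8%, against 43.3%). The calls over all genes thus moved with the same libraries and the block. The labels do not say that replicates came from separate cultures, so p-values measure the spread between these libraries.

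**Figure D1:**
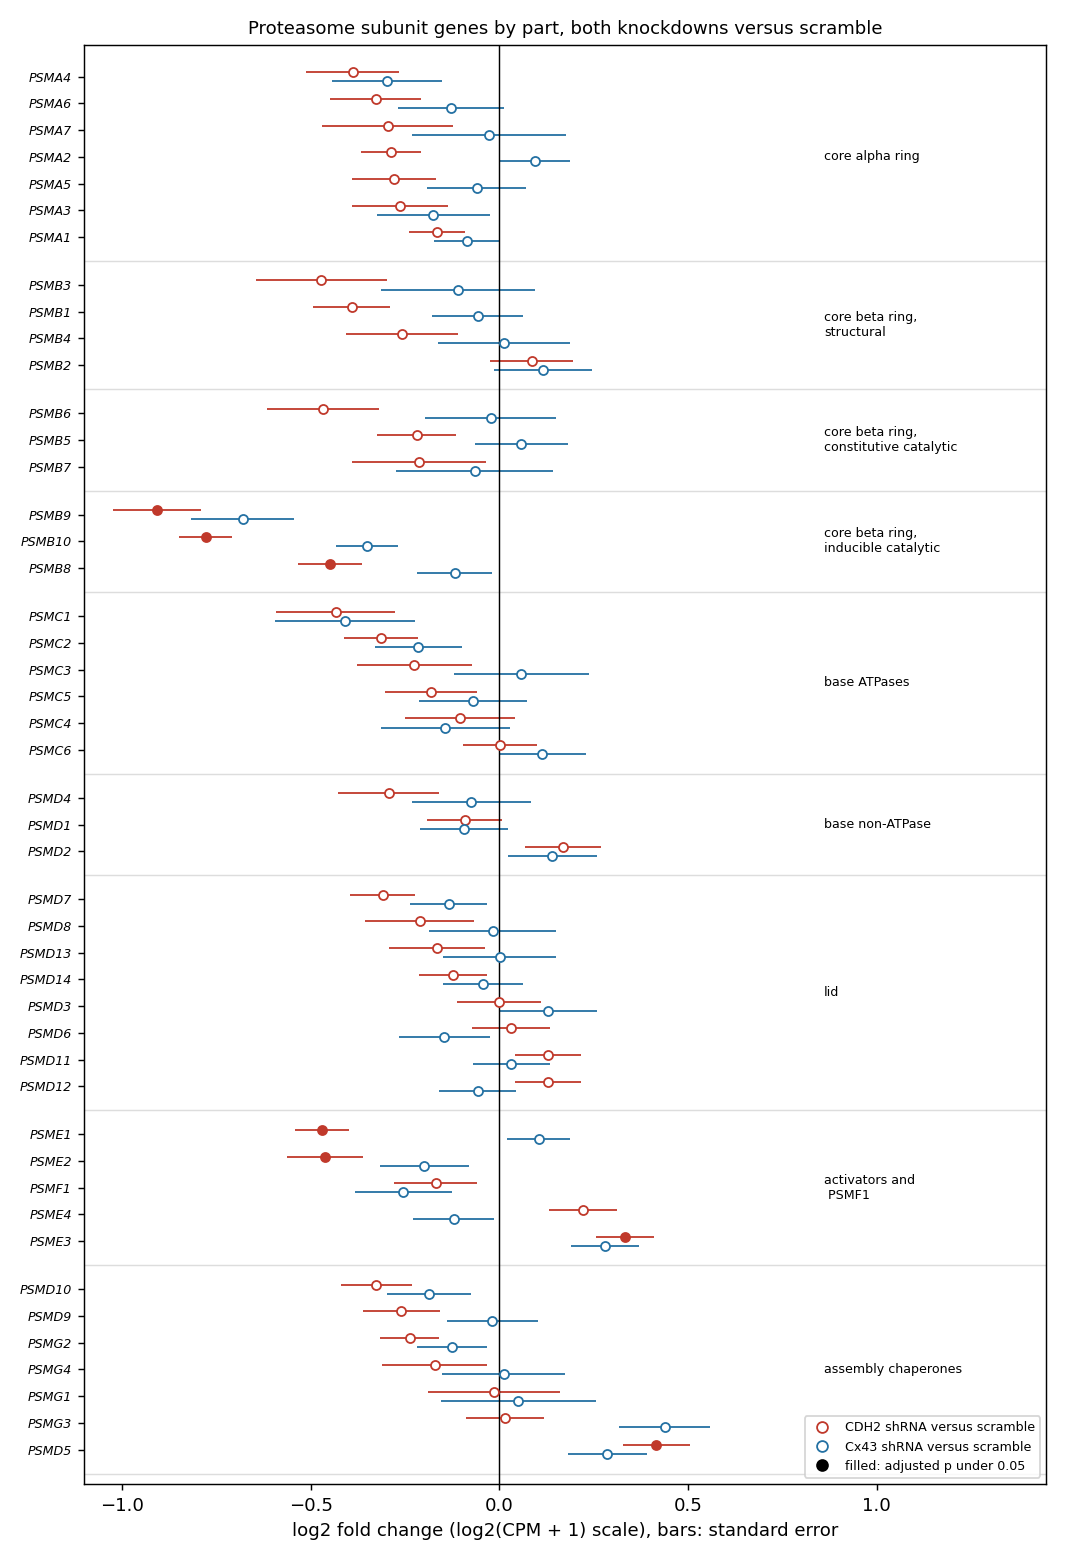
Log2 fold change of each of the 46 genes in CDH2 knockdown (red) and Cx43 knockdown (blue) versus scramble, by place in the complex. Points are limma estimates with standard errors, and filled points have an adjusted p under 0.05. The 7 filled points are all in CDH2 knockdown, and PSMB9 and PSMB10 lie farthest to the left.

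PSMB9, the inducible counterpart of PSMB6, had values of 5.03, 5.16 and 4.92 in scramble, 4.04, 4.10 and 4.25 with CDH2 shRNA and 4.46 and 4.26 with Cx43 shRNA. Every knockdown library lay below every scramble library. PSMB9 was 1.87-fold lower in CDH2 knockdown (log2 fold change -0.91 ± 0.12 SE, n = 3 and 3, limma adjusted p = 0.02). In Cx43 knockdown the log2 fold change was -0.68 ± 0.14 (n = 2 and 3, limma adjusted p = 0.0802), which did not pass. Within replicate numbers 1, 2 and 3 the CDH2 difference was -0.99, -1.06 and -0.66. PSMB9 lies at chr6:32844136-32859851 in GENCODE 44 (hg38), where its span overlaps TAP1 and PSMB8 on the opposite strand and PSMB8-AS1 on its own. How reads in shared stretches were counted is not stated, so its values are uncertain to that extent.

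PSMB10, the inducible trypsin-like-site subunit, had narrow groups, with 4.92, 4.93 and 4.91 in scramble, 4.15, 4.12 and 4.15 with CDH2 shRNA and 4.56 and 4.58 with Cx43 shRNA. The 3 groups did not overlap, and the Cx43 libraries lay in between. It was 1.72-fold lower in CDH2 knockdown (log2 fold change -0.78 ± 0.07, limma adjusted p = 0.016). The log2 fold change was -0.35 ± 0.08 in Cx43 knockdown (limma adjusted p = 0.103). CDH2 and Cx43 knockdown compared directly differed by -0.43 ± 0.08 (limma adjusted p = 0.124).

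PSMB8, the inducible chymotrypsin-like-site subunit, had 6.21, 6.28 and 6.14 in scramble, 5.74, 5.71 and 5.83 with CDH2 shRNA and 6.11 and 6.07 with Cx43 shRNA. The CDH2 libraries stood apart from the rest, and the Cx43 libraries were just under the scramble libraries. PSMB8 was 1.37-fold lower in CDH2 knockdown (log2 fold change -0.45 ± 0.08, limma adjusted p = 0.0324) and with Cx43 shRNA the change was -0.12 on the log2 scale ± 0.10 (limma adjusted p = 0.531). Its gene, at chr6:32840717-32844679, overlaps PSMB8-AS1, an antisense RNA whose log2 fold change in CDH2 knockdown was -0.29 (limma adjusted p = 0.0774).

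The constitutive counterparts were lower on average in CDH2 knockdown, but none passed the test. PSMB5 had 7.22, 7.35 and 7.11 in scramble, 6.95, 6.96 and 7.12 with CDH2 shRNA and 7.35 and 7.22 with Cx43 shRNA. PSMB6 had 7.02, 7.22 and 6.82 in scramble, 6.51, 6.39 and 6.75 with CDH2 shRNA and 7.04 and 6.95 with Cx43 shRNA. PSMB7 had 7.14, 7.39 and 6.90 in scramble, 6.83, 6.79 and 7.17 with CDH2 shRNA and 7.19 and 6.97 with Cx43 shRNA.

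Of these 3, PSMB6 alone had CDH2 libraries all below the scramble libraries. The log2 fold changes in CDH2 knockdown were -0.22 ± 0.11 for PSMB5 (limma adjusted p = 0.184), -0.47 ± 0.15 for PSMB6 (0.0817) and -0.21 ± 0.18 for PSMB7 (0.413). With Cx43 shRNA they were 0.06, -0.02 and -0.07 on the log2 scale. Within replicate 3 the CDH2 difference was 0.01 for PSMB5, -0.07 for PSMB6 and 0.27 for PSMB7. The inducible subunits differed by -0.30 (PSMB8), -0.66 (PSMB9) and -0.76 (PSMB10) in the same replicate. Replicate 3 has no Cx43 library, and after the authors' correction its CDH2 and scramble libraries deviate from their group means by opposite amounts. Differences within replicate numbers are therefore not independent pairs.

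**Figure D2:**
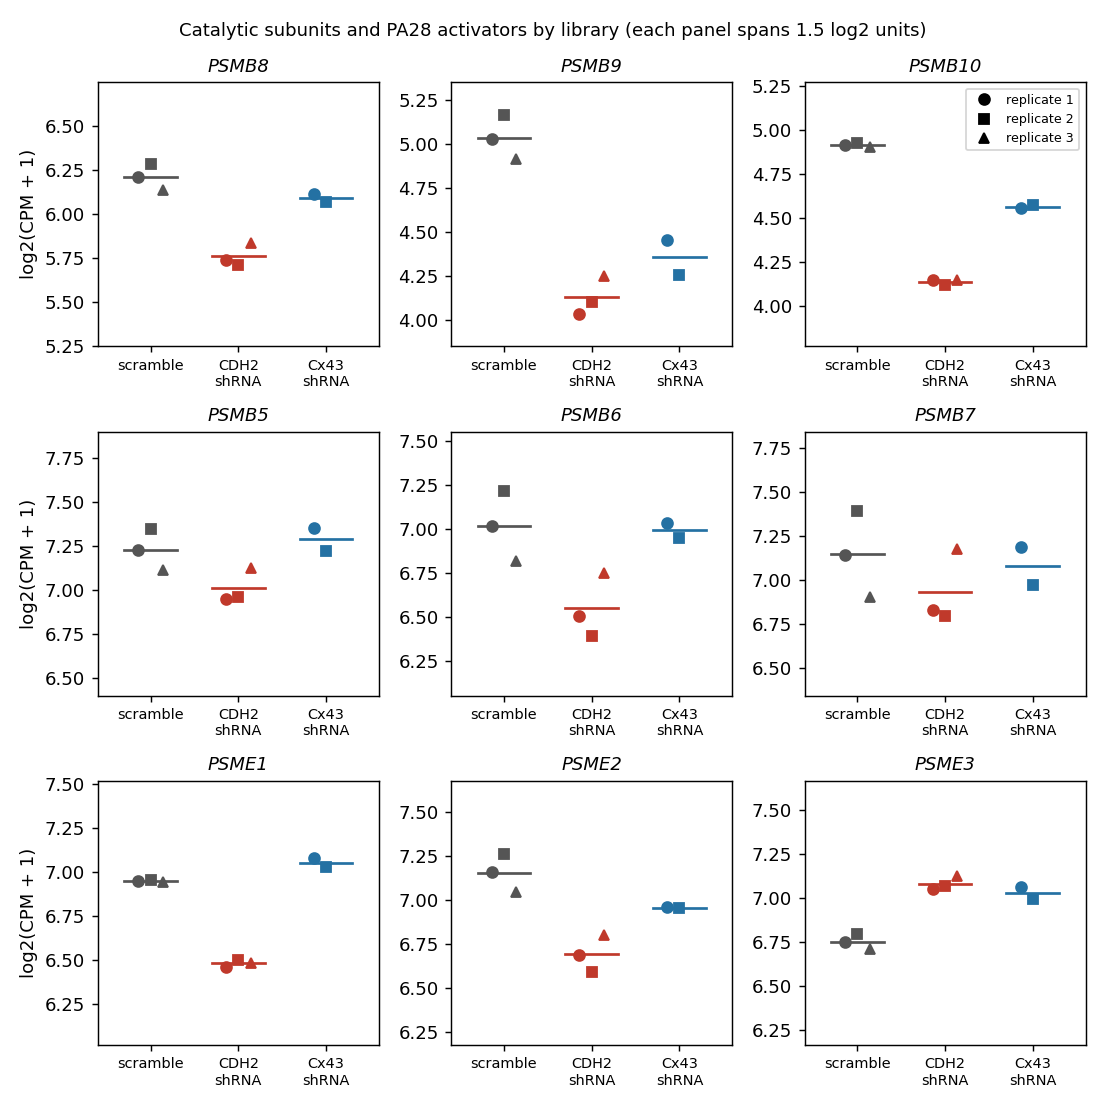
Values of the inducible (top row) and constitutive (middle row) catalytic subunits and of PSME1, PSME2 and PSME3 (bottom row) in each library, as log2(CPM + 1), with lines at group means. Each panel spans the same number of log2 units. The CDH2 libraries of PSMB8, PSMB9, PSMB10, PSME1 and PSME2 lie below all scramble libraries, and those of PSMB5 and PSMB7 overlap them.

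To set each inducible subunit against its counterpart, the difference in log2(CPM + 1) was taken within each library. PSMB9 minus PSMB6 was -1.99, -2.05 and -1.90 in scramble, -2.47, -2.29 and -2.50 with CDH2 shRNA and -2.58 and -2.70 with Cx43 shRNA. Both knockdowns lay below scramble in every library, by -0.44 for CDH2 and -0.66 for Cx43. Each exact permutation p, two-sided, was 0.1, the smallest that these group sizes allow, and 0.15 after adjustment over 9 tests of 3 pairs and 3 comparisons.

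PSMB8 minus PSMB5 was -1.02, -1.06 and -0.98 in scramble, -1.21, -1.25 and -1.29 with CDH2 shRNA and -1.24 and -1.15 with Cx43 shRNA. Again no knockdown library overlapped scramble, with differences of -0.23 for CDH2 and -0.18 for Cx43 (exact permutation p = 0.1 for each). PSMB10 minus PSMB7 was -2.22, -2.46 and -1.996 in scramble, -2.68, -2.67 and -3.02 with CDH2 shRNA and -2.63 and -2.39 with Cx43 shRNA. The CDH2 libraries lay below scramble, by -0.57 (exact permutation p = 0.1), and the Cx43 libraries overlapped it, at -0.29 (exact permutation p = 0.3). Both knockdowns were compared with the same scramble libraries. Between the knockdowns, the PSMB9 minus PSMB6 difference was 0.22 higher in CDH2 (exact permutation p = 0.1), and the other pairs differed by -0.05 for PSMB8 minus PSMB5 (p = 0.4) and -0.28 for PSMB10 minus PSMB7 (p = 0.3).

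**Figure D3:**
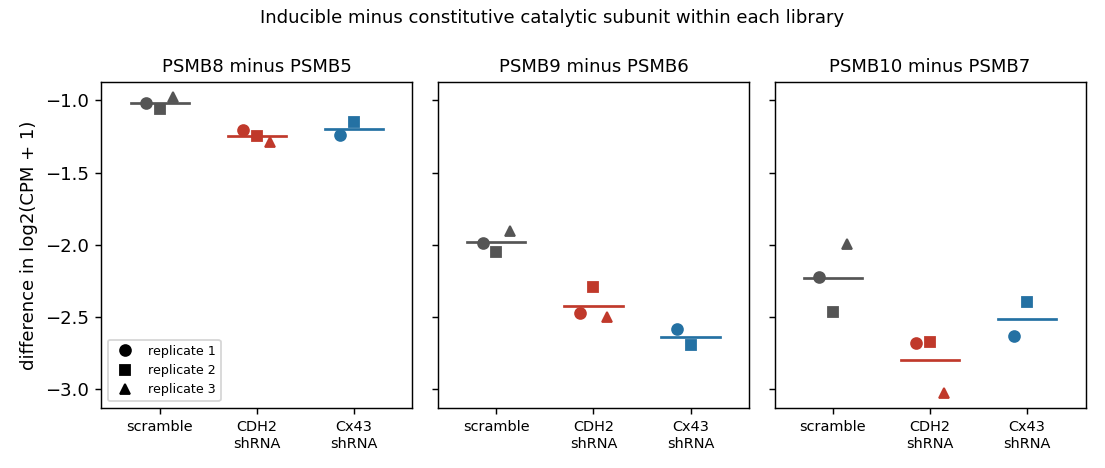
Inducible minus constitutive subunit in log2(CPM + 1) for each library, with lines at group means. In CDH2 knockdown all 3 differences lie below those of scramble, and in Cx43 knockdown PSMB10 minus PSMB7 overlaps scramble.

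Levels were compared between genes as CPM per kilobase of transcript. In scramble, PSMB5, PSMB6 and PSMB7 had 143 ± 11.5, 157 ± 21.8 and 144 ± 24.6 CPM per kb (SD, n = 3), and PSMB8, PSMB9 and PSMB10 had 65.0 ± 3.34, 31.4 ± 2.81 and 29.9 ± 0.218. In CDH2 knockdown the inducible levels were 47.4 ± 2.19, 16.3 ± 1.34 and 17 ± 0.214 CPM per kb in the same order. Constitutive transcripts were thus more abundant than inducible ones in these sorted cells. The inducible share of the 6 summed levels was 22.2%, 20.9% and 23.6% in the scramble libraries, 18.8%, 19.2% and 17.2% with CDH2 shRNA and 18.5% and 19.3% with Cx43 shRNA. All knockdown libraries lay below all scramble libraries, and the group means were 22.2% ± 1.38, 18.4% ± 1.03 and 18.9% ± 0.611 (SD, n = 3, 3 and 2).

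Among the activators, PSME1 and PSME2, the subunits of PA28, fell in CDH2 knockdown. PSME1 had 6.95, 6.96 and 6.95 in scramble, 6.46, 6.50 and 6.48 with CDH2 shRNA and 7.08 and 7.03 with Cx43 shRNA. The CDH2 libraries lay below scramble and the Cx43 libraries just above it. PSME1 was 1.38-fold lower in CDH2 knockdown (log2 fold change -0.47 ± 0.07, limma adjusted p = 0.0225), with 0.10 ± 0.08 in Cx43 knockdown (limma adjusted p = 0.517).

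PSME2 had 7.16, 7.26 and 7.05 in scramble, 6.69, 6.59 and 6.80 with CDH2 shRNA and 6.96 and 6.95 with Cx43 shRNA. It was 1.38-fold lower in CDH2 knockdown (log2 fold change -0.46 ± 0.10, limma adjusted p = 0.0395), and its log2 fold change in Cx43 knockdown was -0.20 ± 0.12 (limma adjusted p = 0.382). The 2 genes thus had similar values in CDH2 knockdown, while in Cx43 knockdown their estimates had opposite signs and neither passed. PSME1 (chr14:24136163-24138967) overlaps EMC9 by 9 bases and PSME2 (chr14:24143362-24147570) overlaps RNF31 by 888 bases, both on the opposite strand.

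PSME3, which forms the nuclear PA28 gamma ring, had 6.75, 6.79 and 6.71 in scramble, 7.05, 7.07 and 7.12 with CDH2 shRNA and 7.06 and 6.996 with Cx43 shRNA. All knockdown libraries lay above scramble. It rose 1.26-fold in CDH2 knockdown (log2 fold change 0.33 ± 0.08, limma adjusted p = 0.0446), and its log2 fold change in Cx43 knockdown was 0.28 ± 0.09 (limma adjusted p = 0.164). With a pseudocount of 0.1 its call in CDH2 knockdown was lost (limma adjusted p = 0.0502). The PSME3 gene overlaps BECN1 by 8966 bases on the opposite strand, so its values are uncertain to that extent. PSME4, the nuclear activator PA200, had 6.89, 6.84 and 6.96 in scramble, 7.08, 7.23 and 7.05 with CDH2 shRNA and 6.82 and 6.73 with Cx43 shRNA. The CDH2 libraries lay above scramble and the Cx43 libraries below it, at log2 fold changes of 0.22 ± 0.09 (limma adjusted p = 0.137) and -0.12 ± 0.11 (0.553). With transcript length and GC content corrected for, these were 0.01 and -0.18.

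PSMF1, a proteasome inhibitor, had 6.33, 6.42 and 6.27 in scramble, 6.06, 6.21 and 6.25 with CDH2 shRNA and 6.21 and 5.97 with Cx43 shRNA. Every knockdown library lay below every scramble library. It had log2 fold changes of -0.17 ± 0.11 with CDH2 shRNA and -0.25 ± 0.13 with Cx43 shRNA, and neither passed (limma adjusted p = 0.299 and 0.311).

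Of the assembly chaperones, PSMD5 alone passed in CDH2 knockdown. PSMD5 holds the ATPases of the base during assembly and is absent from the finished complex. It had 5.21, 5.16 and 5.28 in scramble, 5.60, 5.73 and 5.57 with CDH2 shRNA and 5.54 and 5.47 with Cx43 shRNA. All knockdown libraries lay above scramble, and PSMD5 rose 1.33-fold in CDH2 knockdown (log2 fold change 0.42 ± 0.09, limma adjusted p = 0.0385), with 0.29 ± 0.10 in Cx43 knockdown (limma adjusted p = 0.194). The PSMD5 gene overlaps CUTALP by 18124 bases on the opposite strand, so its values are uncertain to that extent. The other chaperones of the base, PSMD9 and PSMD10, had log2 fold changes of -0.26 and -0.33 in CDH2 knockdown (limma adjusted p = 0.128 and 0.068). PSMD10 had 5.28, 5.26 and 5.32 in scramble, 4.89, 5.07 and 4.92 with CDH2 shRNA and 5.18 and 5.02 with Cx43 shRNA, so that both knockdowns lay below scramble. Of the chaperones of the core, PSMG3 had 4.22, 4.29 and 4.13 in scramble, 4.29, 4.09 and 4.31 with CDH2 shRNA and 4.59 and 4.71 with Cx43 shRNA. The Cx43 libraries stood above both other groups (log2 fold change 0.44 ± 0.12 versus scramble, limma adjusted p = 0.13), which did not pass. PSMG1, PSMG2 and PSMG4 had log2 fold changes of -0.01, -0.24 and -0.17 in CDH2 knockdown.

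The alpha ring, which gates the core, was lower on average in CDH2 knockdown for 7 of 7 genes (49% of all genes were), with log2 fold changes from -0.39 (PSMA4) to -0.16 (PSMA1) and a median of -0.29, and none passed the test. CDH2 libraries lay below scramble without overlap for 5 of these 7 genes (71.4%, against 24.8% of all genes). PSMA1 had 7.01, 7.04 and 6.996 in scramble, 6.82, 6.86 and 6.87 with CDH2 shRNA and 6.97 and 6.90 with Cx43 shRNA, a narrow range in which both knockdowns lay below scramble. PSMA4 had 6.96, 7.11 and 6.81 in scramble, 6.50, 6.49 and 6.72 with CDH2 shRNA and 6.73 and 6.59 with Cx43 shRNA. PSMA2 had 5.81, 5.86 and 5.75 in scramble, 5.50, 5.49 and 5.58 with CDH2 shRNA and 5.93 and 5.88 with Cx43 shRNA. The Cx43 libraries of PSMA4 were below scramble and those of PSMA2 just above it. In Cx43 knockdown the alpha ring had a median of -0.09.

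The structural beta subunits ranged from -0.47 (PSMB3) to 0.09 (PSMB2) in CDH2 knockdown, with a median of -0.32, and had a median of -0.02 in Cx43 knockdown. PSMB1 had 8.03, 8.14 and 7.91 in scramble and 7.63, 7.52 and 7.75 in CDH2 knockdown. Its groups did not overlap (log2 fold change -0.39 ± 0.10, limma adjusted p = 0.0573), and it stayed just outside the threshold. PSMB3 had 6.47, 6.72 and 6.23 in scramble, 5.95, 5.81 and 6.24 with CDH2 shRNA and 6.42 and 6.31 with Cx43 shRNA. PSMB2 had 6.50, 6.63 and 6.37 in scramble, 6.55, 6.49 and 6.71 with CDH2 shRNA and 6.65 and 6.58 with Cx43 shRNA. Of both genes the CDH2 and the Cx43 libraries overlapped scramble.

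The ATPases of the base, which unfold the substrate, ranged from -0.43 (PSMC1) to 0.00 (PSMC6) in CDH2 knockdown, with a median of -0.20, and from -0.41 (PSMC1) to 0.11 (PSMC6) in Cx43 knockdown, with a median of -0.11. PSMC1 thus had the lowest estimate of the ATPases in both, with limma adjusted p = 0.107 in CDH2 and 0.27 in Cx43 knockdown. PSMC1 had 5.75, 5.97 and 5.53 in scramble, 5.25, 5.16 and 5.53 with CDH2 shRNA and 5.41 and 5.28 with Cx43 shRNA, with replicate 3 nearly level in CDH2 knockdown and scramble. PSMC6 had 5.71, 5.82 and 5.61 in scramble, 5.67, 5.65 and 5.82 with CDH2 shRNA and 5.87 and 5.79 with Cx43 shRNA, and its groups overlapped.

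Of the other base subunits, the scaffold PSMD2 had 8.48, 8.57 and 8.41 in scramble, 8.57, 8.67 and 8.73 with CDH2 shRNA and 8.72 and 8.53 with Cx43 shRNA. PSMD4, a ubiquitin receptor, had 7.09, 7.27 and 6.92 in scramble, 6.73, 6.70 and 6.97 with CDH2 shRNA and 7.09 and 6.95 with Cx43 shRNA. PSMD1, another scaffold, had 7.26, 7.37 and 7.17 in scramble, 7.11, 7.14 and 7.27 with CDH2 shRNA and 7.24 and 7.10 with Cx43 shRNA. The groups of all 3 genes overlapped, with log2 fold changes in CDH2 and Cx43 knockdown of 0.17 and 0.14 for PSMD2, -0.29 and -0.07 for PSMD4 and -0.09 in each for PSMD1.

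The lid, which holds the deubiquitinating subunit PSMD14, had medians of -0.06 in CDH2 and -0.03 in Cx43 knockdown. Its log2 fold changes in CDH2 knockdown ran from -0.31 (PSMD7, limma adjusted p = 0.0646) to 0.13 (PSMD12). PSMD7 had 6.78, 6.86 and 6.70 in scramble, 6.46, 6.40 and 6.55 with CDH2 shRNA and 6.65 and 6.63 with Cx43 shRNA. PSMD12 had 6.47, 6.55 and 6.40 in scramble, 6.57, 6.55 and 6.68 with CDH2 shRNA and 6.45 and 6.38 with Cx43 shRNA. PSMD11 and PSMD12 were the 2 lid genes of 8 whose CDH2 libraries lay above all scramble libraries (25%, against 27.1% of all genes), and PSMD14 had -0.12 (limma adjusted p = 0.356). In Cx43 knockdown the lid ran from -0.15 (PSMD6) to 0.13 (PSMD3). PSMD6 had 6.34, 6.45 and 6.23 in scramble, 6.37, 6.25 and 6.48 with CDH2 shRNA and 6.19 and 6.20 with Cx43 shRNA, with the Cx43 libraries below both other groups. PSMD3 had 6.84, 6.97 and 6.72 in scramble, 6.78, 6.78 and 6.97 with CDH2 shRNA and 7.04 and 6.91 with Cx43 shRNA, with overlapping groups.

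Over all 46 genes, the median log2 fold change was -0.22 in CDH2 knockdown, where the median of all 12939 genes was 0.01, and 36 of the 46 (78.3%) were below 0 against 49% of all genes. CDH2 libraries lay wholly below scramble for 19 genes (41.3%, against 24.8% of all genes) and wholly above it for 5 (10.9%, against 27.1%). At an unadjusted p under 0.05, 20 genes passed (43.5%, against 37.5%), 18 of them lower (39.1%, against 18%). The medians by place were -0.78 for the inducible catalytic subunits, -0.32 for the structural beta subunits, -0.29 for the alpha ring, -0.22 for the constitutive catalytic subunits, -0.20 for the ATPases, -0.17 for the activators and for the chaperones, -0.09 for the other base subunits and -0.06 for the lid. The median of all members was -0.35 without CDH2 replicate 3 or scramble replicate 3 and -0.11 without scramble replicate 2. The median of the inducible subunits, which is the value of PSMB10, stayed between -0.79 and -0.76 when each library was left out. PSMB9 then ran from -1.03 to -0.80 and PSMB8 from -0.52 to -0.39. The summed CPM of the 46 genes was 5214 ± 462 in scramble, 4619 ± 345 in CDH2 knockdown and 5082 ± 306 in Cx43 knockdown (SD), and their ranges overlapped.

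Transcript length moved with these differences. The canonical transcripts of the 46 genes had a median length of 1494 nucleotides, against 3257.5 for the 11888 genes with a length in GENCODE 44. Across genes, which are not independent replicates and share the same libraries, Spearman's rho of log2 fold change with length in CDH2 knockdown was 0.57 over the 46 members and 0.50 over the 11888 genes. In Cx43 knockdown it was 0.09 and 0.13. With GC content, rho over the members and over the 11888 genes was -0.22 and -0.36 in CDH2 knockdown. In Cx43 knockdown the rho with GC content was 0.15 and -0.20. When length and GC content were corrected for in each library, the median of all members in CDH2 knockdown became -0.09. By place it became -0.47 for the inducible catalytic subunits, -0.23 for the activators, -0.20 for the alpha ring, -0.12 for the structural beta subunits and for the other base subunits, -0.06 for the ATPases, -0.03 for the lid, -0.02 for the constitutive catalytic subunits and 0.01 for the chaperones. The median of the inducible subunits stayed the lowest, and the order of the other places changed. Singly, PSMA4 (-0.52) and PSMC1 (-0.50) were then below PSMB10 (-0.47) and PSMB8 (-0.23) but above PSMB9 (-0.70). PSMA4 and PSMC1 did not pass (limma adjusted p = 0.0738 and 0.107). PSMB9 (log2 fold change -0.70, limma adjusted p = 0.0207), PSMB10 (-0.47, 0.0382), PSME3 (0.31, 0.0432) and PSMD5 (0.31, 0.0445) still passed, and these 4 were 8.7% of the 46 against 12.9% of all genes with a length. PSMB8 (-0.23, 0.0571), PSME1 (-0.26, 0.0973) and PSME2 (-0.23, 0.0519) did not. The correction took out length and GC content together, so their shares cannot be told apart. What gives rise to the relations with length and GC content was not tested.

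**Figure D4:**
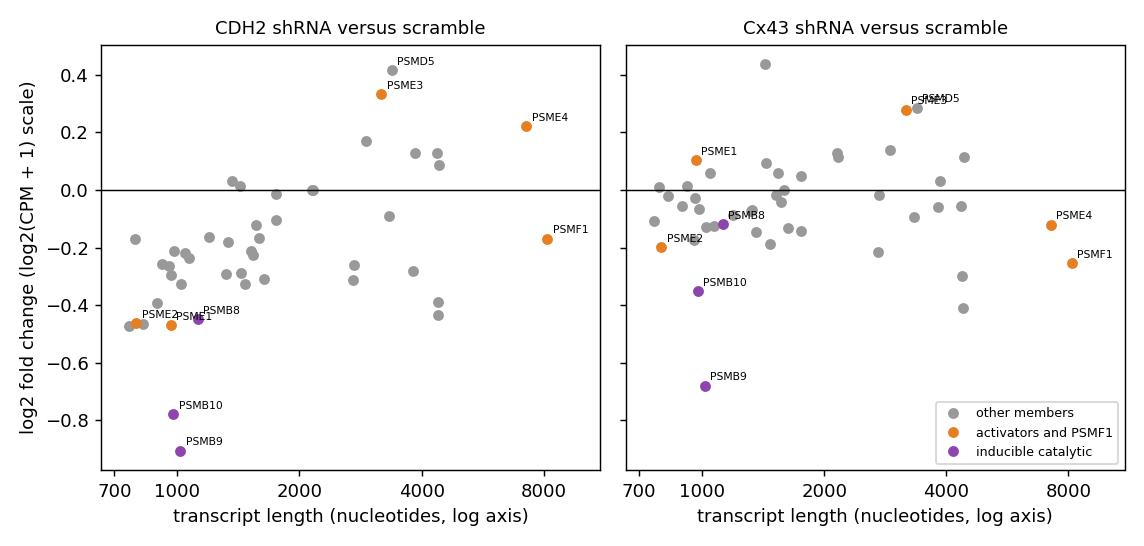
Log2 fold change of the 46 genes against the length of the canonical transcript, on a log axis, for CDH2 (left) and Cx43 knockdown (right) versus scramble. In CDH2 knockdown the short transcripts lie mostly below 0, and PSMB9 and PSMB10 lie below other members of like length.

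Comparing Cx43 knockdown with scramble, 0 of the 46 passed in limma (156 of all genes, 1.21%, and 0.788% for genes that were lower), also with a fold change of at least 1.5 (1.18% of all genes). At an unadjusted p under 0.05 there were 5 (10.9%, against 21.6% of all genes), of which PSMB9 and PSMB10 were lower (9.41% of all genes were) and PSME3, PSMD5 and PSMG3 higher (12.2% of all genes were). The median was -0.06 (0.04 over all genes), and 30 of the 46 (65.2%) were below 0 against 42.4%. Cx43 libraries lay wholly below scramble for 14 genes (30.4%, against 21.4%) and wholly above it for 5 (10.9%, against 31.4%). With length and GC content corrected for, PSMB9 (-0.64, limma adjusted p = 0.039) and PSMG3 (0.51, 0.0455) passed, or 4.35% of the 46 against 4.02% of all genes.

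Between CDH2 and Cx43 knockdown, 0 of the 46 passed in limma, as did 0 of all genes (0%), with 8 of the 46 at an unadjusted p under 0.05 (17.4%, against 20%). Of these 8, PSME4 was higher in CDH2 knockdown, and PSMA2, PSMB1, PSMB6, PSMB8, PSMB10, PSME1 and PSMG3 were lower. PSME1 had the largest estimate of the 46, at -0.57 ± 0.08 (limma adjusted p = 0.115). The median was -0.14, against -0.03 over all genes, and 36 of the 46 (78.3%) were below 0, against 54.8%. Spearman's rho of these differences with transcript length was 0.69 over the 46 members and 0.48 over the 11888 genes with a length. With length and GC content corrected for, the median of the members became -0.07. CDH2 libraries lay wholly below the Cx43 libraries for 16 genes (34.8%, against 29.1%) and wholly above them for 4 (8.7%, against 21.8%).

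Other genes of the pathway were taken from lists by role. Over all genes, 14.3% passed in CDH2 knockdown, which is the background for the count of each list. Among 20 partners of the proteasome, 1 passed (5%), SEM1, a small lid subunit outside the naming rule. SEM1 had 5.64, 5.74 and 5.53 in scramble, 5.01, 4.90 and 5.12 with CDH2 shRNA and 5.43 and 5.43 with Cx43 shRNA, and fell 1.54-fold in CDH2 knockdown (log2 fold change -0.62 ± 0.10, limma adjusted p = 0.0248). POMP, the maturation factor of the core, had -0.40 (limma adjusted p = 0.0626), and ADRM1, a ubiquitin receptor, 0.01 (0.972). The 20 partners ran from -0.62 to 0.38 in CDH2 knockdown, with a median of 0.03. Of the 20, 8 were below 0 (40%, against 49% of all genes). Of 6 ubiquitin and E1 genes 0 passed (0%), with log2 fold changes from -0.37 to 0.34.

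Among 6 genes of proteasome gene transcription, 1 passed (16.7%). NFE2L1, the factor that induces proteasome subunits when the proteasome is inhibited, had -0.04 (limma adjusted p = 0.759), and DDI2, the protease that cleaves and activates NFE2L1, rose, from 4.93, 4.90 and 4.98 in scramble to 5.45, 5.59 and 5.45 in CDH2 knockdown (log2 fold change 0.56 ± 0.09, limma adjusted p = 0.0227). With length and GC content corrected for, the log2 fold change of DDI2 was 0.29 and did not pass (limma adjusted p = 0.0689). Both values are transcript levels and give no cleavage.

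Of 11 regulators of the immunoproteasome and genes of peptide loading, 1 passed (9.09%), B2M, the light chain of MHC class I. It had 9.30, 9.26 and 9.33 in scramble, 8.73, 8.69 and 8.66 with CDH2 shRNA and 8.99 and 9.07 with Cx43 shRNA, so that the groups did not overlap (log2 fold change -0.60 ± 0.08 in CDH2 knockdown, limma adjusted p = 0.02). IRF1, a factor that induces PSMB8, PSMB9 and PSMB10, had 6.56, 6.44 and 6.65 in scramble, 6.23, 6.11 and 6.02 with CDH2 shRNA and 5.99 and 6.24 with Cx43 shRNA. Its log2 fold change was -0.43 in each knockdown, with limma adjusted p of 0.0594 for CDH2 and 0.155 for Cx43. The log2 fold changes of the 11 genes in CDH2 knockdown ran from -0.60 to 0.32, with a median of -0.25. Of the 11, 7 were below 0 (63.6%, against 49% of all genes). TAP1, a subunit of the peptide transporter, had a log2 fold change of -0.30 in CDH2 knockdown (limma adjusted p = 0.0575). Its whole gene lies within the span annotated for PSMB9 on the opposite strand, so its value is uncertain in the same way. In Cx43 knockdown and in the direct comparison of the knockdowns, 0 genes of these 4 lists passed.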

How the data were processed

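RNA-Seq values from 8 libraries of sorted MDA-MB-231 CSCs were used, 3 with scramble, 3 with CDH2 and 2 with Cx43 shRNA. The authors aligned reads to hg38 in Partek Flow with STAR (version 2.6.1 in the submitters' processing notes), removed a low-quality sample, and deposited log2(CPM + 1) values after removing the effect of sequencing replicates and low genes. The annotation is not given in the sources used here. The deposited values hold no counts, and the 500 lowest values of a library included at least 496 different ones, so depth is unknown and the number of libraries sets the precision. Summed back, libraries held 684411 to 727083 CPM. A line without a gene name was left out.

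All 12939 genes were fitted with limma 3.58.1 in R 4.3.3, with group and replicate number as a block in 1 model, two-sided, adjusted by Benjamini-Hochberg over all genes at 0.05. The pairing comes from the replicate numbers in the labels, which the methods tie to sequencing replicates. Deviations from group means summed to at most 1e-04 within each number, so correlations between same-numbered libraries (-1 to 0.951) are set by that correction. Residuals varied in 2 of the 3 directions the model counts, so p-values rest on less information than assumed. Catalytic pairs were compared by exact permutation tests over libraries, without the replicate number. These tests treat libraries as exchangeable, whereas the correction ties same-numbered libraries together, so their p-values are not exact for these values. Lengths, GC content and positions are from GENCODE 44, and promoters from RefSeq. The fit was tested on simulated data whose residuals varied in all 3 directions, unlike the deposited values, so that test does not check the p-values given here. Figures were drawn with matplotlib 3.10.9.

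Members and gene lists were chosen with earlier results of these data known. Every member is covered; given in full are the catalytic subunits, activators, called members, and the extremes of each place in the complex. From the other lists, NFE2L1, POMP, ADRM1, IRF1, TAP1 and called genes are named, and a further gene of that rule is not reported here. Overlaps with other genes that have their own row concern 14 members, and 3 pseudogenes of members have rows, so reads may be split. Alternatives were no block, quantile normalization, median centring, a low-value filter (75% of genes kept), a pseudocount of 0.1, a variance trend, only the groups compared, a fold change of at least 1.5, a length and GC correction, and leaving out each library.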

Additional observations from a re-analysis of the deposited data

Results flagged for a closer look

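For 3 members every CDH2 knockdown library lay on one side of all scramble libraries and every Cx43 knockdown library on the other (6.52% of the 46, against 4.78% of all genes). CDH2 versus Cx43 knockdown, tested directly with limma, gave a log2 difference of -0.38 for PSMA2 (adjusted p = 0.146), -0.57 for PSME1 (adjusted p = 0.115) and 0.34 for PSME4 (adjusted p = 0.181), and none passed 0.05. PSME1 was lower in CDH2 knockdown and higher on average in Cx43 knockdown, as was PSMA2, and PSME4 had the opposite order. With length and GC content corrected for, the differences between the knockdowns were -0.32 for PSMA2 (limma adjusted p = 0.129), -0.40 for PSME1 (0.135) and 0.19 for PSME4 (0.251), and PSME4 in CDH2 knockdown versus scramble was 0.01.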

How the results depend on the processing

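The CDH2 calls depended on the model. The number of changed members in CDH2 versus scramble was 7 (14.3% of all genes passed), and it was 22 without the replicate block (43.3% of all genes), 11 with quantile normalization (15.2%), 4 with length and GC correction (12.9%), 2 with a fold change of at least 1.5 (4.68%), 0 with only the groups compared (0%), and 0 to 27 when each library was left out (0% to 41%). In Cx43 versus scramble it was 0 (1.21%), and 5 without the block (10.9% of members, 24.3% of all genes), 5 with only the groups compared (21.7%), 2 with the correction (4.35% and 4.02%), and 0 to 4 without each library (0% to 16.5%). Between the knockdowns it was 0 (0%), and 7 without the block (15.2% and 21.5%), 2 with only the groups compared (4.35% and 4.32%), and 0 to 9 without each library (0% to 16.5%). Where a Cx43 library was left out, the remaining one was assumed to vary like the other groups. Of the calls in CDH2 knockdown, 28.6% were higher, and 50% with length and GC correction (2 higher, 2 lower), 18.2% with quantile normalization (2 and 9), 16.7% with a pseudocount of 0.1 (1 and 5), 13.6% without the block (3 and 19), 3.7% without CDH2 or scramble replicate 3 (1 and 26) and 0% without scramble replicate 2 (0 and 3). The 7 called members kept their direction in each setting run for them, as did the 9 differences between catalytic subunits.

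Sign changes were checked gene by gene only for the genes given in full and the genes named from the other lists. With length and GC correction, 5 of their uncalled estimates changed sign by more than the standard error. They were PSMB2 (-0.026), PSMD12 (-0.044) and PSMD3 (0.15) in CDH2 knockdown, and PSMF1 (-0.059) and PSMA1 (0.021) between the knockdowns. The median of the 7 chaperones, some of which were not checked singly, went from -0.17 to 0.005 in CDH2 knockdown. When each library was left out, uncalled estimates crossed 0 in CDH2 knockdown for PSMB2 (-0.045 to 0.19), PSMC6 (-0.10 to 0.084), PSMD6 (-0.082 to 0.12) and ADRM1 (-0.31 to 0.28), in Cx43 knockdown for PSMB6 (-0.12 to 0.18), PSMB7 (-0.23 to 0.18), PSMB3 (-0.23 to 0.13), PSMD2 (-0.0054 to 0.29) and PSMD4 (-0.18 to 0.10), and between the knockdowns for PSMF1 (-0.095 to 0.26), PSMD2 (-0.12 to 0.17), NFE2L1 (-0.057 to 0.12) and IRF1 (-0.18 to 0.18). Other sign changes of uncalled values among the genes checked were smaller than the standard error. The cause of these changes was not tested.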
